A study of Mus musculus with 2 samples.

Results

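The matrix metalloproteinases (MMPs) and the tissue inhibitors of metalloproteinases (TIMPs) expressed by mouse cardiac myofibroblasts were followed here as a group of 10 genes chosen by name, 7 MMPs (*Mmp2*, *Mmp3*, *Mmp9*, *Mmp11*, *Mmp13*, *Mmp14* and *Mmp19*) and 3 TIMPs (*Timp1*, *Timp2* and *Timp3*), among 24532 genes in the count table. Both libraries came from C57BL/6 myofibroblasts taken from hearts 3 days after myocardial infarction (MI), grown in serum-containing medium on plastic, and transfected with siRNA at 12.5 nM for 72 h. The control library (siCtrl) received a control siRNA and the knockdown library (si*Vgll3*) received 1 siRNA against *Vgll3*, a transcriptional cofactor that the study follows in these cells. The study defined the myofibroblasts as the attached heart cells that lack the leukocyte surface protein CD45. The labels give the strain only as C57BL/6, and the study's methods name C57BL/6J for its work on isolated myofibroblasts. The methods give young adult male mice for its MI model, and the number of hearts behind each culture is not given in the sources used here. With 1 library per condition, no difference below has a replicate check in these data and no p-value is given. An effect of the siRNA and a difference between the 2 cultures cannot be told apart. Of the genes named below, the study reports *Col1a1*, *Col1a2* and *Postn* as reduced by quantitative RT-PCR after *Vgll3* knockdown in such cells.

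MMPs are zinc-dependent enzymes that cut collagens, gelatin, proteoglycans and other extracellular proteins. They are made as inactive proenzymes and are switched on when their propeptide is removed by convertases, plasmin or other MMPs. TIMPs are small secreted proteins that bind the active site of an MMP, so the balance of both families sets how fast matrix is broken down. In the infarcted heart this balance is known to shape the clearance of dead tissue and the maturation of the scar.

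Levels are given as TPM, the authors' value per gene scaled for gene length and library size, which allows genes of different length to be compared. The change of a gene is M, the log2 ratio of its TPM in si*Vgll3* to that in siCtrl, and A is log2 of its mean TPM. A gene was counted as lower at M below −0.5 and as higher at M above 0.5, in both cases at A above 0. Square brackets hold the 95% Clopper-Pearson interval of M, computed from the read counts, which covers counting error only. Reads on genes numbered 140815237 in the siCtrl library and 125789276 in the si*Vgll3* library. *Vgll3* itself was at 202 TPM in siCtrl against 84.0 TPM in si*Vgll3*, so 41.6% of its level was left.

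The myofibroblast identity of both libraries was checked with markers. All 10 myofibroblast markers had A above 0, and their summed level was 14984 TPM in siCtrl against 12219 TPM in si*Vgll3*. *Ptprc*, which encodes CD45, had 0 reads in both libraries, as did 4 more of the 12 leukocyte markers, and the list summed to 16.3 TPM in siCtrl against 14.8 TPM in si*Vgll3*. Of the 5 with A above 0, 3 were higher (*Cd53* at 0.760 and 5.91 TPM, *Cd14* with an M of 0.62 and *Csf1r* with 0.50) and *Lyz2* alone was lower, at 10.9 and 3.13 TPM, for a median M of 0.50. Of the 10 neutrophil markers, 7 had 0 reads in both libraries and none reached A above 0. The 8 endothelial markers summed to 32.9 TPM in siCtrl against 30.5 TPM in si*Vgll3*, with a median M of 0.42 over the 5 with A above 0. Of these 5, *Tek* was lower at an M of −0.54 and *Emcn* was at −0.02. *Pecam1* was at 0.47, *Cdh5* at 0.50 and *Egfl7* at 0.42. The 8 mural cell markers summed to 118 TPM and 115 TPM, most of it *Mcam* at 94.9 and 102 TPM, while *Notch3* at an M of −0.82 and *Des* at −1.21 were lower. Of the 10 myofibroblast markers 5 were lower, among them *Postn* with an M of −1.22, and 2 were higher, *Thy1* and *Tagln*, by the thresholds given above. By the same thresholds 11.4% of all genes at A above 0 were lower and 5.73% higher. Of the 8 cardiomyocyte markers 6, among them *Myh6* and *Myl2*, had 0 reads in both libraries, and *Tnnt2* alone had A above 0, at 60.0 TPM in siCtrl against 10.4 TPM in si*Vgll3*. In bulk RNA, fewer cells of a type and less RNA per cell cannot be told apart, and the part of these minor signals in the results below was not tested.

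Of the 10 members, 8 reached A above 0, and *Mmp9* and *Mmp13* did not. In si*Vgll3*, 4 of these 8 were lower, *Mmp2*, *Mmp11*, *Mmp14* and *Mmp19*, all of them MMPs, while over all 11754 genes at A above 0 the share of lower genes was 11.4%. A single member, *Timp1*, was higher, against 5.73% of all genes. *Mmp3*, *Timp2* and *Timp3* lay between the thresholds. The median M was −0.71 over the 5 MMPs and 0.10 over the 3 TIMPs, and −0.05 over all genes. The members were chosen with earlier results of these data known, so these counts describe the 10 genes and nothing further is read from them.

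**Figure D1:**
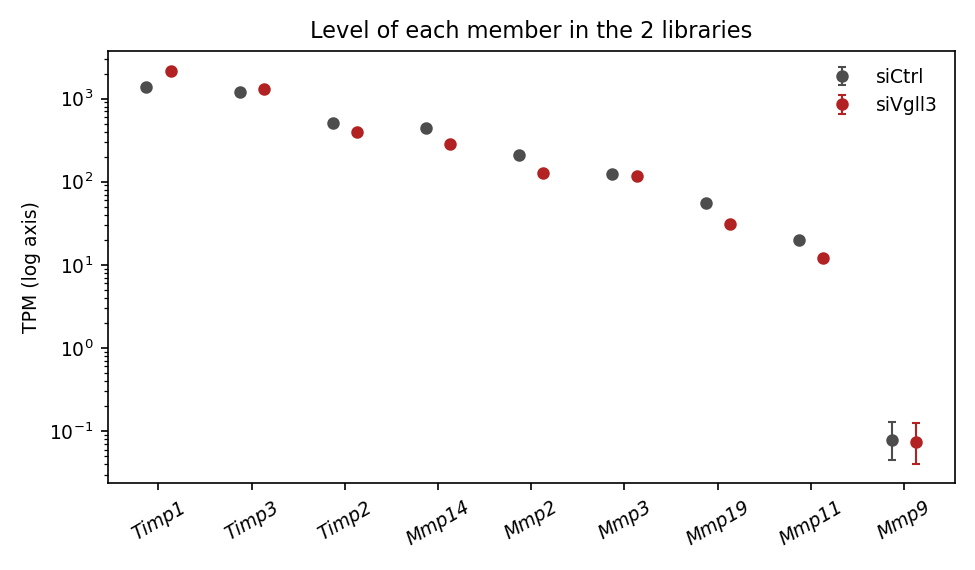
TPM on a log axis of the 9 members with a TPM value, in siCtrl (grey) and si*Vgll3* (red), 1 library each, with bars for the exact Poisson interval of the reads, visible only for *Mmp9*. The 3 TIMPs and *Mmp14* stand at the top in both libraries, *Timp1* is higher in si*Vgll3*, and *Mmp9* is near the limit of detection in both.

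The order of the levels was the same in both libraries, with *Timp1* first, followed by *Timp3*, *Timp2*, *Mmp14*, *Mmp2*, *Mmp3*, *Mmp19*, *Mmp11* and *Mmp9*. *Timp1* ranked 123rd of the 14158 genes with a TPM value in siCtrl and 70th in si*Vgll3*. *Mmp14*, the most abundant of the proteinases, ranked 342nd in siCtrl and 584th in si*Vgll3*. Neighbours from *Timp1* down to *Mmp11* differed in TPM by more than counting error in both libraries, and the closest of them were *Mmp2* and *Mmp3* in si*Vgll3*, with *Mmp2* at 1.09 times the level of *Mmp3* (1.07 to 1.12). In siCtrl the same ratio was 1.69 (1.66 to 1.72). How far these levels vary between cultures is not known from 1 library each.

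*Mmp14* (NCBI gene 17387, chromosome 14 of mm10 from 54431598 to 54442456, plus strand) encodes MT1-MMP, a collagenase anchored in the cell membrane that also activates pro-MMP2. It was at 443 TPM in siCtrl, from 107572 reads, and at 281 TPM in si*Vgll3*, from 63160 reads. Its M was −0.66 [−0.67, −0.64], so 63.4% of the siCtrl level was left. Only 7.49% of all genes at A above 0 had an M this low or lower.

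*Mmp2* (NCBI gene 17390, chromosome 8 from 92827290 to 92853421, plus strand) encodes gelatinase A, the enzyme for denatured collagen and type IV collagen that fibroblasts secrete constitutively. Its level was 209 TPM in siCtrl against 128 TPM in si*Vgll3*, with 41019 and 23180 reads. M was −0.71 [−0.73, −0.69], which leaves 61.1% of the siCtrl level. *Mmp14* and *Mmp2*, the activator and its substrate, kept nearly the same proportion, since the level of *Mmp14* was 2.12 times that of *Mmp2* in siCtrl (2.10 to 2.14) and 2.20 times in si*Vgll3* (2.17 to 2.24). The long non-coding gene *Gm45472* overlaps the 3′ end of *Mmp2* on the opposite strand. The library kit is stranded, but whether the counting used strand is not given in the sources used here.

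The study also measured miR-29b, a microRNA known for silencing collagen mRNAs, so the 3′ UTRs of the members were searched for TGGTGCT, the match to the seed that it shares with its family member miR-29a. In the mature sequences, credited to RefSeq with build GRCm38.p6, capitals mark the seed, bases 2 to 8.
miR-29a-3p: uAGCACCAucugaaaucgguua
miR-29b-3p: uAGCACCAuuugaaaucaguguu
Of the 10 members, *Mmp2* and *Mmp13* have 1 match each in the 3′ UTR of the GENCODE vM21 transcript with the longest coding sequence, as do 11.8% of 20578 genes at least once. The *Mmp2* match lies in the last part of the gene at chr8:92852908-92852930 on the plus strand, shown with the seed match in capitals because *Mmp2* is the one abundant member that carries it.
*Mmp2* site: tcctctgggctgcccTGGTGCTc
*Mmp11*, *Mmp14* and *Mmp19*, the other lower members, have no match of these 7 letters in their 3′ UTRs, which are 760, 593 and 1724 bases long. A match is a description of the sequence and not evidence of binding, and these libraries of polyadenylated RNA do not measure microRNAs.

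*Mmp19* (NCBI gene 58223, chromosome 10 from 128790910 to 128800827, plus strand) encodes a soluble MMP that cuts basement membrane components. It had the lowest M of the members, −0.84 [−0.89, −0.80], at 55.6 TPM in siCtrl against 31.0 TPM in si*Vgll3*, from 11740 and 6223 reads. *Mmp11* (NCBI gene 17385, chromosome 10 from 75923221 to 75932502, minus strand) encodes stromelysin-3, which furin activates inside the cell. Its level was 19.9 TPM in siCtrl against 12.1 TPM in si*Vgll3*, from 2811 and 1616 reads, an M of −0.72 [−0.81, −0.63]. Among the 28 pairs of members at A above 0, 3 had overlapping intervals of M, *Mmp11* with *Mmp19*, *Mmp2* and *Mmp14*. The log2 change of the ratio of *Mmp19* to *Mmp11* was −0.12 (−0.22 to −0.02), outside counting error. Those of *Mmp11* to *Mmp2*, −0.01 (−0.10 to 0.08), and to *Mmp14*, −0.07 (−0.16 to 0.02), were not detectable at this depth. *Mmp19* shares part of its interval with *Tmem198b* on the opposite strand, which had 4069 reads in siCtrl against 3652 in si*Vgll3*.

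*Mmp11* and *Mmp19* also differ from the other members in how TPM relates to reads. M from TPM minus M from reads scaled to library size was −0.05 for *Mmp14* and for *Timp1*, equal to the median of −0.05 over all genes. For *Mmp11* and *Mmp19* the same difference was −0.09 each, a value below −0.08 that 2.31% of all genes at A above 0 share. Both genes are listed with 2 RefSeq transcripts each in the deposited tables. From reads alone, their M was −0.64 for *Mmp11* and −0.75 for *Mmp19*, again below −0.5. A change in the use of transcripts of different length was not tested.

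**Figure D2:**
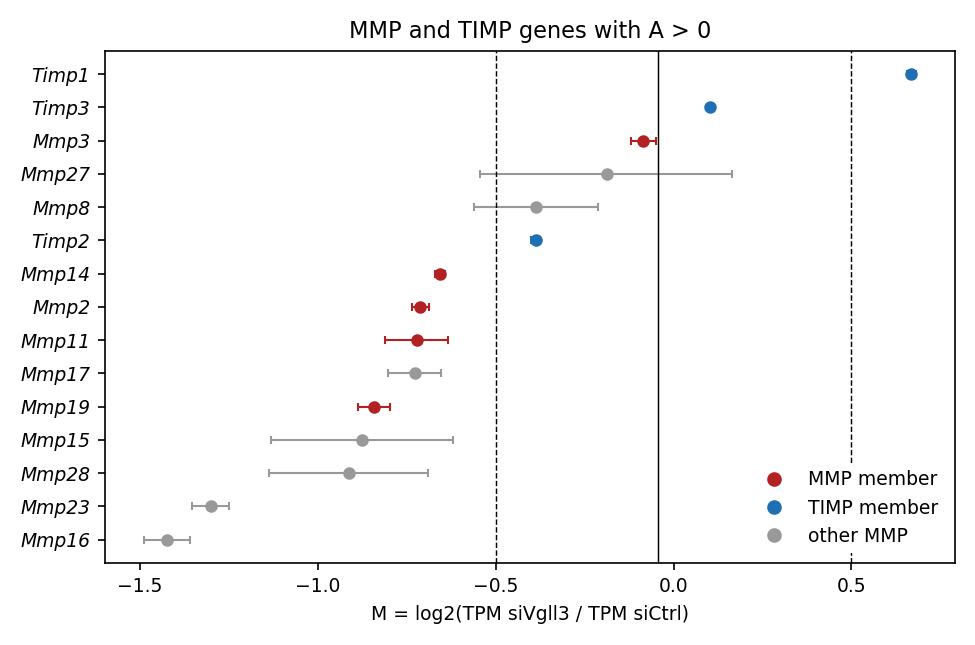
M of the 15 MMP and TIMP genes with A above 0, with bars for the 95% Clopper-Pearson interval of the reads. Red marks MMP members, blue TIMP members and grey other MMPs, dashed lines the thresholds of −0.5 and 0.5, and the solid line the median of all genes. All 12 MMPs have an M below 0, though the interval of *Mmp27* crosses 0. Of them 9 lie below −0.5, and *Timp1* alone lies above 0.5. Of all genes at A above 0, at least 55.0% had an M below 0, 11.4% were lower and 5.73% higher.

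*Mmp3* (NCBI gene 17392, chromosome 9 from 7445822 to 7455975, plus strand) encodes stromelysin-1, which cuts proteoglycans and fibronectin and activates other proMMPs. Unlike the 4 lower MMPs it stayed near its siCtrl level, at 124 TPM in siCtrl against 117 TPM in si*Vgll3*, from 14233 and 12419 reads. M was −0.08 [−0.12, −0.05], close to the median of all genes. As a result, its share of the summed TPM of the MMP members was 14.5% in siCtrl and 20.5% in si*Vgll3*. The interval of its M lay 0.51 above that of *Mmp11*, the nearest of the 4 lower MMPs.

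*Mmp13* (NCBI gene 17386, chromosome 9 from 7272514 to 7283333, plus strand) encodes collagenase-3, the main soluble collagenase of rodents. It had 30 reads in siCtrl (exact Poisson interval 20.2 to 42.8) and 0 reads in si*Vgll3*, and it is outside the TPM tables. A floor of 3 reads was set for a count of 0, for which the exact Poisson interval reaches 3.69 reads. Against that floor, with reads scaled to library size, *Mmp13* was 8.93-fold lower in si*Vgll3* with the 30 reads taken as exact. It was 6.03-fold lower when the lower limit of the siCtrl interval was used. Both folds would be smaller against 3.69 reads. At 30 reads its level in siCtrl was already near the limit of detection. *Mmp9* (NCBI gene 17395, chromosome 2 from 164940326 to 164955850, plus strand) encodes gelatinase B, an enzyme of neutrophils and macrophages. It had 16 reads in siCtrl against 14 in si*Vgll3*, or 0.0789 TPM and 0.0745 TPM. A difference between the libraries was not detectable for *Mmp9* at this depth, with an M of −0.08 [−1.23, 1.04].

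*Mmp3* and *Mmp13* belong to a cluster of 10 MMP genes on chromosome 9, from 7272514 to 7699585, in which *Mmp3* took 93.4% of the reads in siCtrl against 94.6% in si*Vgll3*. The next was *Mmp8*, the neutrophil collagenase, with 656 reads in siCtrl against 464 in si*Vgll3*, an M of −0.39 [−0.56, −0.21] at 4.18 TPM in siCtrl. *Mmp27*, *Mmp10* and *Mmp1b* had 151, 95 and 69 reads in siCtrl against 123, 87 and 28 in si*Vgll3*. *Mmp7*, *Mmp12*, *Mmp20* and *Mmp1a* had 0 reads in both libraries. *Mmp1a* and *Mmp1b* are closely related copies, and *Mmp3* and *Mmp10* are also alike in sequence, so the counting could have placed some reads on the wrong copy. No gene of the cluster with A above 0 passed either threshold.

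**Figure D3:**
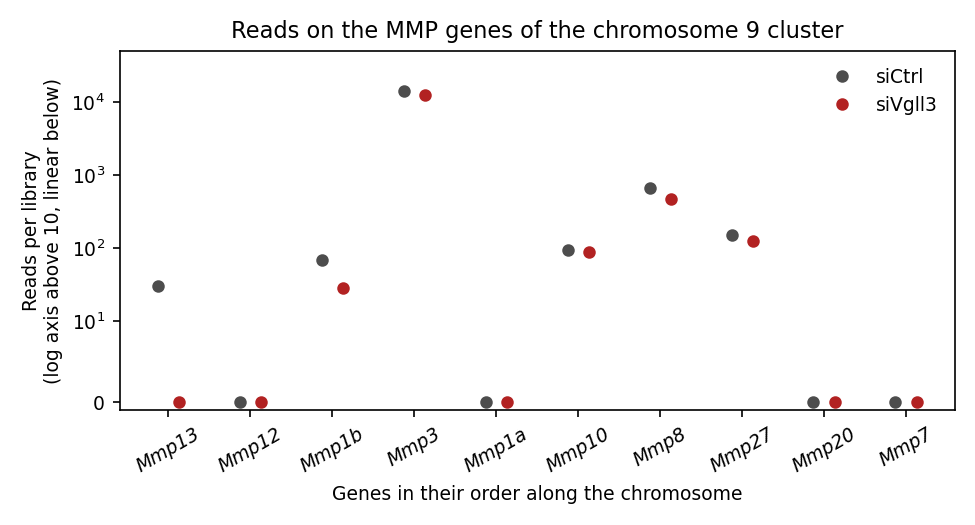
Reads per library on the 10 MMP genes of the chromosome 9 cluster in their order along the chromosome, in siCtrl (grey) and si*Vgll3* (red), on an axis that is logarithmic above 10 reads and linear below. *Mmp3* stands above all its neighbours with 14233 and 12419 reads, and 4 genes are at 0 in both libraries, which differ in total reads.

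The proximal promoters of *Mmp3* and *Mmp13* are shown because these genes of the same cluster share motifs while their levels are far apart. RefSeq windows of 250 bases before to 50 bases after the annotated start (GRCm38.p6) were at hand for 7 of the 10 members, without *Mmp2*, *Mmp9* and *Mmp19*. They were searched on both strands for the AP-1 motif TGAGTCA, which FOS and JUN proteins bind, and the TEAD motif CATTCC, recognised by the DNA-binding partners of VGLL proteins, and on the coding strand for the TATA box TATAAA. These motifs were chosen after the values were seen. Capitals mark the matches.
*Mmp3*, chr9:7445572-7445871, plus strand: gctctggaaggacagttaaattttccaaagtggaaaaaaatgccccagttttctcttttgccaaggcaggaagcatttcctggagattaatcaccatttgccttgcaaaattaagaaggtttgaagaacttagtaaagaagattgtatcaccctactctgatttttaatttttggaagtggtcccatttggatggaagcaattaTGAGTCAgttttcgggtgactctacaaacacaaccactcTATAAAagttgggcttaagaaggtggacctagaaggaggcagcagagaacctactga
*Mmp13*, chr9:7272264-7272563, plus strand: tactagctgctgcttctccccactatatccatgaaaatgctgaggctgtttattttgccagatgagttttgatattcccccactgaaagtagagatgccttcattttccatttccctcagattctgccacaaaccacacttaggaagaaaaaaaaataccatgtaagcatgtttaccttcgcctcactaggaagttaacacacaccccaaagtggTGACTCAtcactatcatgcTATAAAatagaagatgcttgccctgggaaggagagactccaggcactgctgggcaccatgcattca
*Mmp3* holds the AP-1 motif from −46 to −40 and a TATA box from −7 to −2, counted from the annotated start. *Mmp13* holds the reverse complement of the AP-1 motif from −35 to −29 and a TATA box from −16 to −11, a shorter spacing. No other member searched has either motif in its window. Over all 32851 windows, 5.20% hold the AP-1 motif and 8.32% the TATA box.

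*Timp1* (NCBI gene 21857, chromosome X from 20870166 to 20874737, plus strand) encodes a soluble inhibitor of most MMPs, weak against the membrane-type enzymes. It was at 1363 TPM in siCtrl, from 77248 reads, and at 2167 TPM in si*Vgll3*, from 113576 reads. Its M was 0.67 [0.66, 0.68], so the level in si*Vgll3* was 159% of that in siCtrl, and 96.4% of all genes at A above 0 had an M at or below this. *Timp1* lies within *Syn1*, a gene of the opposite strand with 285 reads in siCtrl against 270 in si*Vgll3*. Its promoter window is shown as that of the only member past the upper threshold.
*Timp1*, chrX:20869916-20870215, plus strand: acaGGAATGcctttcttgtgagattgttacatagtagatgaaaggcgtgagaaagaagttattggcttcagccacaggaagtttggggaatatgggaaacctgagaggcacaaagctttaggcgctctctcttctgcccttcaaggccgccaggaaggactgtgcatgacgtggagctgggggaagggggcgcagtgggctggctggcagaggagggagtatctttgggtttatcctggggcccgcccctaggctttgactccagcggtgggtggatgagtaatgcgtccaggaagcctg
Capitals mark the reverse complement of the TEAD motif, from −247 to −242. None of the other 6 windows of members holds the TEAD motif, which 14.7% of all windows hold. A match in a window is not a bound site.

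*Timp3* (NCBI gene 21859, chromosome 10 from 86300412 to 86349505, plus strand) encodes the TIMP that binds to the matrix and also inhibits several ADAM and ADAMTS proteinases. It was at 1200 TPM in siCtrl against 1288 TPM in si*Vgll3*, from 358542 and 356311 reads, the most reads of any member. M was 0.10 [0.10, 0.11], above counting error and between the thresholds. *Timp3* lies within *Syn3* of the opposite strand, which had 0 reads in both libraries. *Timp2* (NCBI gene 21858, chromosome 11 from 118301061 to 118355411, minus strand) encodes the inhibitor that also forms the bridge between MT1-MMP and pro-MMP2 on the cell surface. Its level was 513 TPM in siCtrl against 392 TPM in si*Vgll3*, from 118602 and 83942 reads, with an M of −0.39 [−0.40, −0.37]. The gene *Cep295nl*, with 548 reads in siCtrl against 499 in si*Vgll3*, lies within *Timp2* on the same strand.

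The 3 inhibitors differed in M. The M of *Timp1* was 0.57 above that of *Timp3* and 1.06 above that of *Timp2*, with no overlap between their intervals. *Timp1* made up 44.3% of the summed TIMP TPM in siCtrl against 56.3% in si*Vgll3*, *Timp3* 39.0% and 33.5%, and *Timp2* 16.7% and 10.2%. *Timp4* had 0 reads in both libraries.

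Summed over the members, the MMPs reached 852 TPM in siCtrl against 569 TPM in si*Vgll3*, while the TIMPs reached 3076 TPM in siCtrl against 3848 TPM in si*Vgll3*. The ratio of MMP to TIMP transcripts was 0.277 in siCtrl (counting interval 0.275 to 0.279) and 0.148 in si*Vgll3* (0.147 to 0.149). Its log2 change was −0.91 (−0.92 to −0.89), and because the ratio is taken inside each library it does not depend on how the libraries are scaled to each other. *Timp1* carried much of it, since the log2 change was −0.56 when *Timp1* was left out of the sum. These are ratios of mRNA levels and say nothing of active enzyme.

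**Figure D4:**
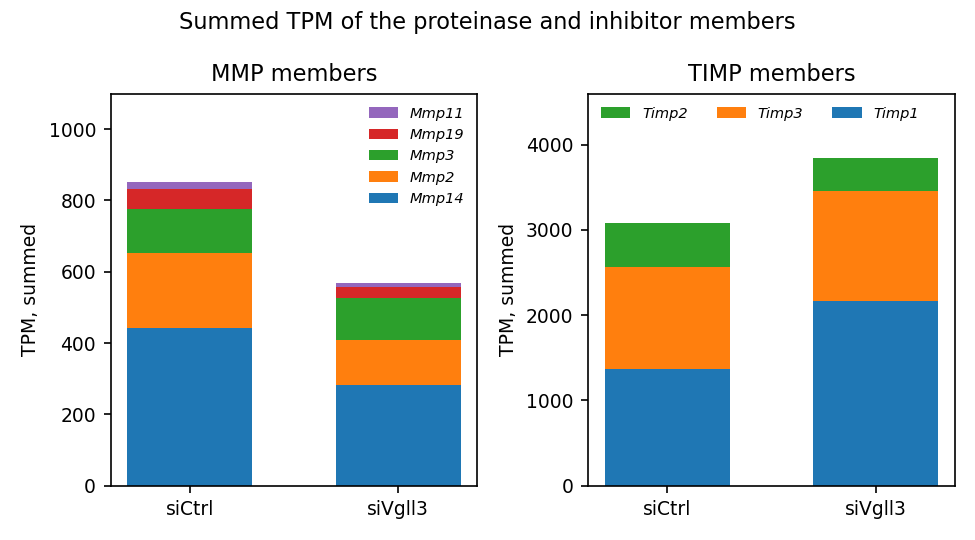
Summed TPM of the MMP members (left) and TIMP members (right) in siCtrl and si*Vgll3*, stacked by gene on axes that start at 0 and differ in scale, without *Mmp9* and *Mmp13*. The MMP stack is 852 TPM in siCtrl against 569 TPM in si*Vgll3*, each gene being lower in si*Vgll3* and *Mmp3* the least so, and the TIMP stack is 3076 and 3848 TPM, with most of the difference in *Timp1*.

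The ratios chosen here for pairs of a proteinase and an inhibitor were lower in si*Vgll3* too, but to different degrees. Not every pair went this way. The M of *Mmp3* was 0.30 above that of *Timp2*, so the ratio of *Mmp3* to *Timp2* was higher in si*Vgll3*. *Mmp14* to *Timp2* was 0.864 in siCtrl (0.857 to 0.871) and 0.717 in si*Vgll3* (0.710 to 0.724). *Mmp2* to *Timp2* was 0.408 in siCtrl against 0.325 in si*Vgll3*. The larger shifts were against the other inhibitors, with *Mmp14* to *Timp3* at 0.369 in siCtrl against 0.218 in si*Vgll3* and *Mmp3* to *Timp1* at 0.0908 and 0.0539. *Mmp2* to *Timp1* had the largest log2 change of the pairs computed, −1.38 (−1.41 to −1.35).

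The remaining genes of both families were read in the same way. Of these 17 genes 7 had A above 0, and 5 of the 7 were lower and none higher, with a median M of −0.87. The shares over all genes at A above 0 were 11.4% lower and 5.73% higher. *Mmp16*, which encodes the membrane-type enzyme MT3-MMP, had an M of −1.42 [−1.49, −1.36], at 24.8 TPM in siCtrl against 9.24 TPM in si*Vgll3*. *Mmp23*, an MMP without the usual hemopexin domain, had 124 TPM in siCtrl, about the level of *Mmp3*, and 50.2 TPM in si*Vgll3*, with an M of −1.30 [−1.35, −1.25]. *Mmp17*, *Mmp28* and *Mmp15* followed at −0.73, −0.91 and −0.87, with 14.5, 2.24 and 1.38 TPM in siCtrl. Of the 6 membrane-type MMP genes, *Mmp14*, *Mmp15*, *Mmp16* and *Mmp17* had A above 0 and all 4 were lower, a grouping made after the values were seen. *Mmp24* and *Mmp25* were detected with 30 and 16 reads in siCtrl against 23 and 16 reads in si*Vgll3*.

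Among genes that act on MMP proenzymes, single genes passed the thresholds in both directions. *Furin*, the convertase that activates pro-MMP11 and pro-MMP14, was at 111 TPM in siCtrl against 105 TPM in si*Vgll3*, an M of −0.08. *Plaur*, the urokinase receptor, was higher, with an M of 0.79, at 34.6 TPM in siCtrl against 59.8 TPM in si*Vgll3*. *Pcsk6*, another convertase, was lower, with an M of −0.64. *Plat* and *Serpine2* lay between the thresholds, at −0.48 and 0.08.

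Inhibitors outside the TIMP family, inducers and clearance receptors numbered 10, of which 9 had A above 0, with 3 lower, 1 higher and a median M of −0.43. These counts rest on few genes, beside shares of 11.4% lower and 5.73% higher over all genes. *Reck*, a membrane-anchored MMP inhibitor, was at 22.4 TPM in siCtrl against 12.3 TPM in si*Vgll3*, an M of −0.86. *Tfpi2*, a secreted inhibitor of serine proteinases such as plasmin, had an M of 1.12, from 568 reads in siCtrl against 1142 in si*Vgll3*. *Mrc2*, the collagen uptake receptor, was lower, at −0.58, as was *Itgb3*, at −0.74. *Bsg*, the MMP inducer EMMPRIN, was at 931 TPM in siCtrl against 883 TPM in si*Vgll3*, and *Lrp1*, which clears TIMPs and MMPs from the cell surface, had an M of −0.43.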

How the data were processed

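Stranded mRNA libraries were prepared from total RNA. Upstream of the tables, the authors ran FastQC and Trimmomatic on the reads, HISAT2 against mm10, and StringTie for gene-level values. Versions and the annotation release are not given in the sources used here. The values the authors deposited are raw read counts, whole numbers per gene with no scaling, and TPM, scaled by the authors for gene length and library size, for 14158 genes. All per-sample columns were used.

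The groups come from the labels. M and A were computed over the whole table (Python 3.11.15, scipy 1.17.1) with nothing added before the logarithm, and only the members and named genes are given. The threshold for lower genes is that of the study, and the one for higher genes is its mirror image, added here. The 1341 lower genes found here are not exactly the number that the study reported. Intervals of M are Clopper-Pearson intervals of the counts shifted onto the TPM ratio, and intervals of ratios inside a library use the delta method. Both were run on simulated Poisson counts, the model they assume, so that check cannot show how they behave on real reads. They cover counting error only, since reads are not independent molecules. With 1 library per condition no model was fitted, and edgeR 4.0.16 and DESeq2 1.42.0 were used for scaling only. Other settings tried were CPM, TMM and DESeq2 scaling, added TPM, other filters, other thresholds and sums without single members.

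The members and gene lists were chosen with earlier results of these data known. Genes named were all members and other MMPs with at least 50 reads. From the other lists, genes past a threshold or among the 3 with the largest mean TPM were named. Outside this rule, some genes were named after their values were seen. These were genes at 0 reads, *Mmp24*, *Mmp25*, *Furin*, *Adam17*, *Col4a1*, *Col4a2*, *Tnc*, *Vcan*, *Pecam1*, *Cdh5* and overlapping genes. One gene that acts on MMP proenzymes, and the counts of its list, are not reported here. No gene was named for a similar pattern, since 2 libraries give a single ratio. Gene positions are from RefSeq for GRCm38.p6, the assembly also called mm10, matched by NCBI gene number for all 10 members, and strands and 3′ UTRs from GENCODE vM21.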

Additional observations from a re-analysis of the deposited data

How the results depend on the processing

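The same 4 members were lower and the same 1 was higher under each setting tried except a threshold of 1 on M, where 0 members were lower and 0 higher, since no member has an M beyond it in either direction. The other settings were CPM, TMM and DESeq2 scaling, 0.1 or 1 TPM added, centred M, A from averaged log2 values, no filter on A, at least 10 reads per library, A above 2, and the whole interval past the threshold. Over the settings that recompute M, that of *Mmp14* ran from −0.66 to −0.61, of *Timp1* from 0.67 to 0.72 and of *Mmp3* from −0.08 to −0.03. The log2 change of the ratio of MMP to TIMP TPM kept its sign. It was −0.87 without *Mmp2*, −1.01 without *Mmp3*, −1.03 without *Timp3*, −0.56 without *Timp1*, −0.73 with reads in place of TPM and −0.99 with all other MMPs and *Timp4*. Without a filter on A, 2103 genes were lower and 1428 higher over the whole table, against 1341 and 674, and with at least 10 reads per library the higher genes numbered 1159, as more genes were tested. The counts fell to 384 and 207 with a threshold of 1, and the higher genes to 393 with A above 2 and to 442 with the whole interval, as fewer genes could pass. No paired analysis was possible because there was only 1 library of each kind, and no replicate could be left out. Depth limits *Mmp9* and *Mmp13*, and no setting replaces a replicate.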

Other observations

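ADAM and ADAMTS proteinases, of which TIMP3 is known to inhibit several but not all, were read beside *Timp3*, whose M was 0.10. Of 13 ADAM and ADAMTS genes listed, 11 had A above 0, with 4 lower, 1 higher and a median M of −0.48. For these counts and those of the matrix substrates below, the shares over all genes were 11.4% lower and 5.73% higher. The lower genes were *Adam12* at −0.71, *Adamts1* at −0.68, *Adamts2*, which trims procollagen, at −0.58, and *Adamts5*, an aggrecanase, at −0.53. *Adam9*, whose product is not known as a TIMP target, was higher, at 0.56, with 256 TPM in siCtrl against 377 TPM in si*Vgll3*. *Adam17*, the TNF sheddase, and *Adam10* lay between the thresholds, at −0.48 and −0.22. Among 14 matrix substrates of MMPs, 13 had A above 0, with 5 lower, none higher and a median M of −0.34. The collagen genes *Col1a1*, *Col1a2*, *Col3a1* and *Col5a1* had an M of −0.90, −0.53, −0.86 and −0.89. The type IV collagen genes *Col4a1* and *Col4a2* lay between the thresholds, at −0.39 and −0.24. *Eln*, which encodes elastin, was the lowest of the substrates at −2.96, at 43.3 TPM in siCtrl against 5.55 TPM in si*Vgll3*. *Fn1*, which encodes fibronectin, had an M of 0.04. *Bgn*, at −0.34, and *Tnc* and *Vcan*, at 0.41 and 0.38, also lay between the thresholds.

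The genes of the AP-1 subunits were read beside the AP-1 motif in the windows of *Mmp3* and *Mmp13*. Of 7 genes 6 had A above 0 and all 6 had an M above 0, with a median of 0.35 against −0.05 over all genes. The lowest of the 6 was *Jund*, and 62.6% of all genes at A above 0 had an M at or below its value. By the thresholds 2 of the 6 were higher, against 5.73% of all genes, a count that rests on few genes. *Fosl1*, at 21.9 TPM in siCtrl against 40.9 TPM in si*Vgll3*, and *Fos*, at 14.6 TPM and 23.4 TPM, were higher, with an M of 0.90 and 0.68. *Junb*, *Jund* and *Fosl2*, the most abundant, had an M of 0.24, 0.04 and 0.16. A relation between these genes and the levels of *Mmp3*, *Mmp13* or *Timp1* was not tested.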
